A study of Mus musculus with 15 samples.

Results

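Vesicle fusion in the exocrine pancreas was examined through the messenger RNAs of the SNAREs, their syntaxin-binding partners, the synaptotagmins and the synaptotagmin-like proteins. Members were all genes named Stx, Stxbp, Vamp, Syt or Sytl with a number and an optional letter, together with Snap23, Snap25, Snap29, Snap47, Nsf and Napa. Of 58 such mouse genes in the RefSeq table used for names, 56 had a probe, out of 20660 genes with a probe on the array. Of these 56, 49 gave a signal well above background on at least 3 of the 15 arrays and were tested among 17337 genes. The other 7 were Stx19, Stxbp5l, Syt4, Syt9, Syt12, Syt14 and Syt16, each above background on at most 1 array, and no level is given for them. Of the members, 40 were above background on all 15 arrays.

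SNAREs are small membrane-anchored proteins whose helices zip together between facing membranes and drive them to fuse. One partner sits on the vesicle (a VAMP), and syntaxins and SNAP-25 relatives sit on the target membrane. Sec1/Munc18 proteins of the Stxbp group hold and guide syntaxins, synaptotagmins sense calcium or bind lipid, and the ATPase NSF with its adaptor alpha-SNAP pulls used complexes apart. The pancreatic acinar cell releases zymogen granules at its apical membrane when cholecystokinin or acetylcholine raises calcium. Known players in that release are Vamp2 and Vamp8 on the granule, Snap23 and Stx2 at the apical membrane, Stx3 on the granule and Stx4 at the basolateral membrane. Islet endocrine cells in the same organ use Stx1a, Snap25 and Vamp2 instead.

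RNA was taken from the whole pancreas. The mice were C57BL/6J males, either wild type or from a transgenic line that the series title ties to betacellulin, a ligand of the receptor ERBB4. Age, promoter and copy number of the transgene are not given in the labels. Fasted mice (18 h) received 1 intraperitoneal injection of saline or of cerulein, a cholecystokinin analogue that at 50 µg/kg body weight starts acute pancreatitis. Tissue was taken 3 h later according to the protocol, although the saline samples carry a 0 h label. The groups were wild type after saline (n = 4), wild type after cerulein (n = 4), transgenic after saline (n = 3) and transgenic after cerulein (n = 4), each array being 1 animal. In bulk tissue, fewer cells of a type and less RNA per cell cannot be told apart.

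Levels are log2 processed intensities minus the 75th percentile of each array, so 0 is the array's 75th percentile and 1 unit is a doubling. Levels of different genes come from different probes and are not set against each other. The arrays lay on 3 slides, and slide 2 held cerulein samples alone (wild type replicates 11 and 12, transgenic replicate 16). The 75th percentile was 380.6 to 528.8 intensity units on slide 2 and 152.2 to 330.5 on the others, and 55.6% to 76.7% of spots were well above background per array. Members called in the cerulein responses are therefore also given with slide as a term of the fit, and without slide 2 where this changed the call. Btc, the gene encoding betacellulin, differed by 0.55 ± 0.48 (log2, SE) between transgenic and wild type after saline (adjusted p = 1). The labels name neither the transgene nor its species, so this probe does not test the genotype labels.

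After cerulein, the syntaxins Stx3 and Stx16 rose in both genotypes, and Stx1a, the VAMP Vamp2, the syntaxin-binding proteins Stxbp5 and Stxbp6 and the synaptotagmin Syt15 fell in both. In wild type, 2 of 49 members rose and 8 fell at an adjusted p below 0.05. Over all genes tested, 5.63% rose and 8.35% fell, so the share of members that rose (4.08%) was near the background and the share that fell was 16.3%. In transgenic mice 2 members rose and 6 fell, against 4.78% and 3.41% of all genes. The members called were Stx3 and Stx16 in each genotype among those that rose. Of those that fell, 5 were shared, which is 62.5% of the wild-type list and 83.3% of the transgenic list. Stx8 was called in wild type alone and Syt6 in transgenic mice alone, and no difference between the genotypes was called for either.

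The transgenic count rested on few saline arrays. It was 0 of 49 lowered without transgenic saline replicate 3, 2 without replicate 4 and 4 without replicate 2, and 4 without transgenic cerulein replicate 13, 14 or 16. The wild-type count of lowered members ranged from 5, without wild-type cerulein replicate 11 or 12 or saline replicate 6 or 7, to 14 without cerulein replicate 10. It was 4 without slide 2. The share of all genes called under these reduced fits is not given here, so the changes in count are not shown to be particular to the members. The median over the 49 members was -0.45 in wild type and -0.30 in transgenic mice, beside -0.06 for all genes in each. With slide in the fit these medians were -0.18 and -0.11, beside -0.06 and -0.07.

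**Figure D1:**
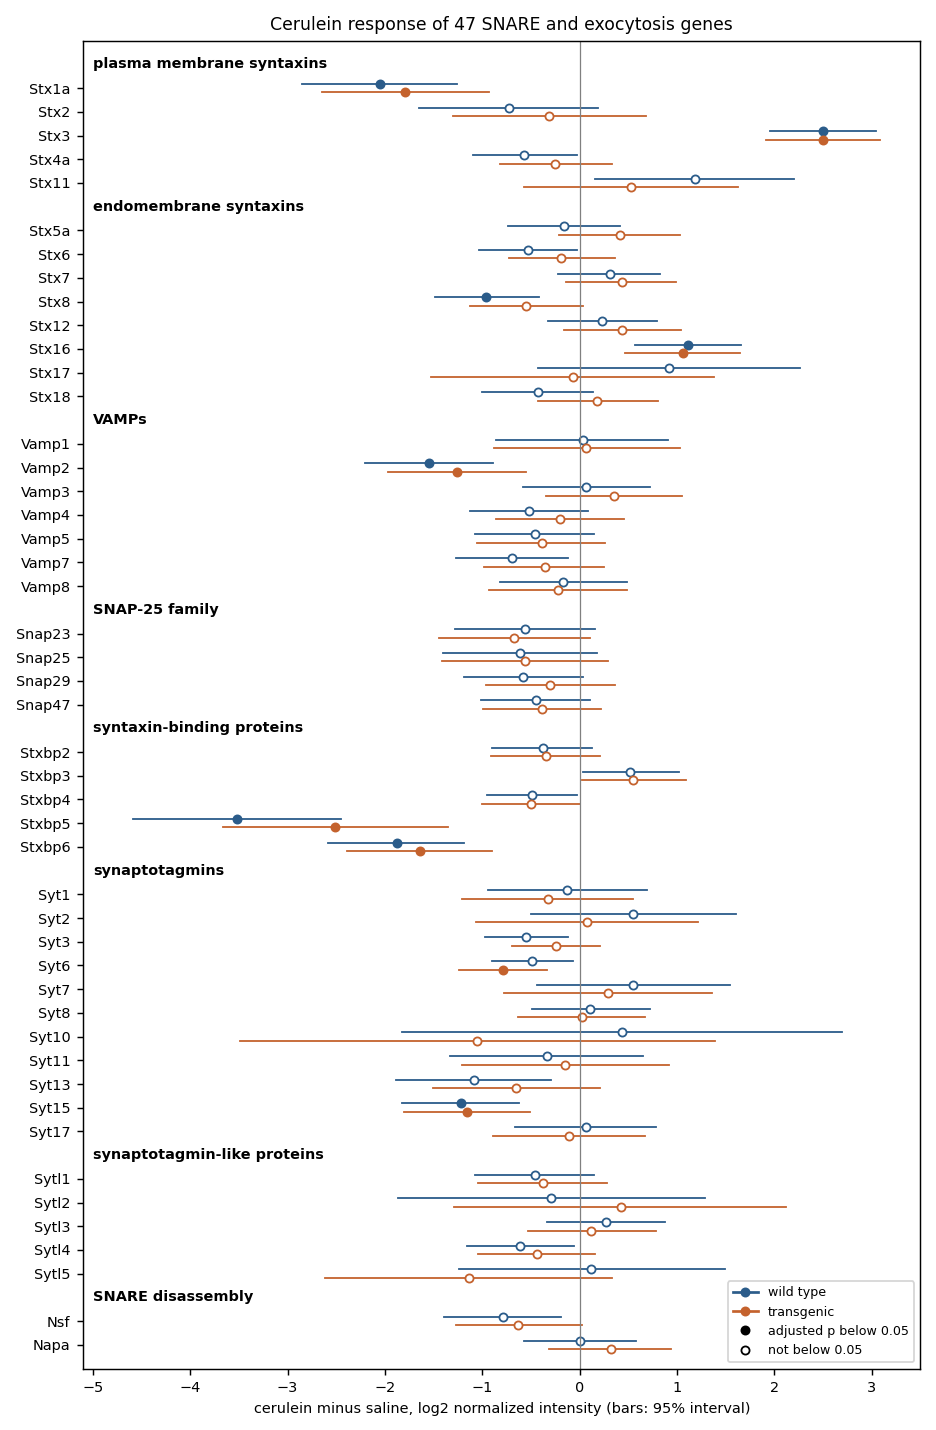
Difference between cerulein and saline for 47 of the 49 tested members, on the log2 scale (x axis), grouped by role. Points are limma estimates and bars their 95% intervals, blue for wild type and orange for transgenic, and filled points have an adjusted p below 0.05. Stx3 lies at 2.50 in both genotypes, and Stxbp5 has the lowest fitted values, -3.52 and -2.51, the first from cerulein signals not above background.

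Stx3 was the member with the smallest adjusted p in each response. It encodes a plasma-membrane and granule syntaxin of apical and regulated secretion. Its promoter, from the RefSeq table (mouse build GRCm38.p6, chr19:11819404-11819653, minus strand, the 250 bases before the annotated start), is shown because no other member rose as far. Capitals mark the only match among 7 motifs searched, a TATA box read on the opposite strand.
Stx3 promoter: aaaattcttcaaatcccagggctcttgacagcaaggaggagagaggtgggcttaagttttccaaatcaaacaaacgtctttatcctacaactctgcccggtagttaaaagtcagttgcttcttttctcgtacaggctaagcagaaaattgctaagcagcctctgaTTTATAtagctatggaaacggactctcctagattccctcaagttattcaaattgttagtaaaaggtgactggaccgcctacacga
Its GC content was 42%, below the median of 52.4% over the 32851 promoters in the table. The match begins 85 bases before the start, and 12.4% of all promoters held TATAAA on either strand within the same 250 bases.

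In wild type after saline Stx3 read 0.32, 0.34, 0.46 and 0.15 (replicates 5 to 8). After cerulein it read 2.89, 3.29, 2.59 and 2.48 (replicates 9 to 12). Transgenic mice read 0.60, 0.55 and 0.46 after saline and 2.86, 3.22, 3.65 and 2.41 after cerulein. Every cerulein array thus lay above every saline array, and the groups did not overlap in either genotype. In wild type 26.5% of members and 17.4% of all genes had groups without overlap. In transgenic mice the shares were 20.4% and 21.6%, so lack of overlap alone does not set a member apart. The difference was 2.50 ± 0.25 (SE) in wild type (5.64-fold, adjusted p = 2.18e-05) and 2.50 ± 0.27 in transgenic mice (5.65-fold, adjusted p = 6.75e-05). It was 2.89 and 2.73 with slide in the fit. It was 2.58 and 2.97 within slides 1 and 3 in wild type, and 2.44 and 3.14 in transgenic mice. On these slides wild type had 1 and 1 cerulein arrays beside 1 and 3 saline arrays. Transgenic mice had 2 and 1 beside 1 and 2. Within-slide values of any gene rest on these few arrays. A second, dimmer Stx3 probe gave 2.14 ± 0.23 and 2.40 ± 0.25. Both calls held without any 1 of the 15 arrays.

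Of the 6 plasma-membrane syntaxins tested, Stx3 alone was called as raised, and 2 fell in wild type and 1 in transgenic mice. Over all genes 8.35% and 3.41% fell. With slide in the fit, 1 of the 6 rose and 1 fell in each genotype. Stx1a, the target-membrane SNARE of neurons and endocrine cells, fell in both. Its promoter (chr5:135023232-135023481, plus strand, same table and build) is shown beside that of Stx3, since these syntaxins moved in opposite directions. Capitals mark TGACG, the shortened core of the cyclic AMP response element, which begins 144 bases before the start, and GGGCGG, a GC box.
Stx1a promoter: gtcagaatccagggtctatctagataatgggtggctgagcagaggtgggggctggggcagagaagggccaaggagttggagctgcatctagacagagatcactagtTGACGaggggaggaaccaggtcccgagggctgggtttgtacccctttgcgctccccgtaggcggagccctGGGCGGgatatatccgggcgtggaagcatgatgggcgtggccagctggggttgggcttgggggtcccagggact
This stretch is 62.0% GC and held no TATAAA, and on either strand 17.8% of all promoters held TGACG and 32.7% held GGGCGG.

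Stx1a read -3.24, -2.47, -1.09 and -1.98 in wild type after saline and -3.96, -4.38, -4.31 and -4.34 after cerulein. In transgenic mice it read -2.79, -2.03 and -1.78 after saline and -4.37, -4.14, -3.63 and -3.82 after cerulein. All cerulein arrays were below all saline arrays in each genotype, although the saline values themselves spread widely. The difference was -2.05 ± 0.37 in wild type (4.14-fold lower, adjusted p = 0.00223) and -1.79 ± 0.40 in transgenic mice (3.46-fold lower, adjusted p = 0.012). Both calls held with slide in the fit, at -1.85 and -1.57. The probe was above background on 3 of 4 cerulein arrays in each genotype. With normexp background correction the falls were -1.0 and -0.97, still called. Within slide 1, where wild type had 1 array a group, it was -0.72, and within slide 3 it was -2.53. The transgenic call was lost without saline replicate 3 (-1.70) or 4 (-1.58).

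Stx2, the apical syntaxin of the acinar cell, gave -0.73 (95% interval -1.65 to 0.19) and -0.31 (-1.30 to 0.68). Stx4a, the basolateral one, gave -0.57 (adjusted p = 0.139) and -0.25 (adjusted p = 0.649). Stx11, known from secretion by immune cells, gave 1.18 ± 0.48 (adjusted p = 0.109) and 0.53 ± 0.51. None of these 3 was called in either response.

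Of the 8 syntaxins of internal membranes, Stx16 rose in both genotypes and Stx8 fell in wild type. Stx16 acts in transport from endosomes back to the trans-Golgi network. It read -0.79, -0.55, -0.30 and -0.44 in wild type after saline and 0.43, 1.04, 0.88 and 0.01 after cerulein. Transgenic mice read -0.43, -0.34 and -0.02, then 1.06, 0.53, 1.19 and 0.41. Again no cerulein array reached down to a saline array of its genotype. The rise was 1.11 ± 0.26 (2.16-fold, adjusted p = 0.0102) in wild type and 1.06 ± 0.28 (2.09-fold, adjusted p = 0.0275) in transgenic mice, and 1.41 and 1.28 with slide in the fit. The transgenic call was lost without cerulein replicate 13 (0.98) or 15 (0.93), or saline replicate 2 (0.98), 3 (1.02) or 4 (1.19).

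**Figure D2:**
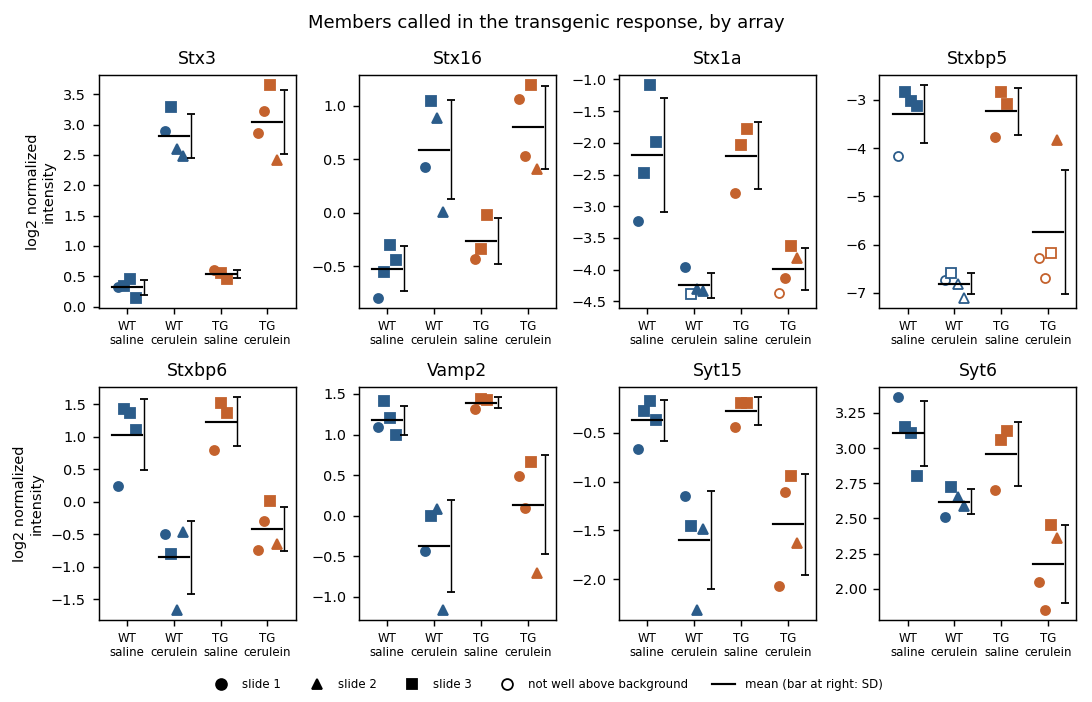
Log2 normalized intensity (y axis) on every array for the 8 members called in the transgenic response, in the 4 groups. Symbols give the slide, open symbols are signals not well above background, the line is the group mean and the bar at its right the SD. Cerulein and saline arrays of 1 genotype do not overlap in any panel, and the Stxbp5 signals of all 4 wild-type cerulein arrays are open. The panels were chosen by their calls, and 17.4% of all genes in wild type and 21.6% in transgenic mice had no overlap.

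Stx8, a late endosomal syntaxin, read 0.26, 0.62, 0.73 and 0.51 in wild type after saline and -0.53, 0.23, -0.87 and -0.53 after cerulein. Only replicate 10 came close to the saline arrays. The difference was -0.96 ± 0.25 (1.94-fold lower, adjusted p = 0.0207) and -0.56 with slide in the fit (adjusted p = 0.0128). The call was lost without slide 2 (-0.68), without wild-type cerulein replicate 9 (-0.92), 11 (-0.81) or 12 (-0.92) and without saline replicate 6 (-0.93) or 7 (-0.89). In transgenic mice it was -0.55 ± 0.27 (adjusted p = 0.256).

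With slide in the fit, 3 of these 8 syntaxins were called as raised in wild type and 5 in transgenic mice, against 13.8% and 15.2% of all genes under that fit. Stx7, a syntaxin of late endosomes and lysosomes, then rose by 0.66 and 0.65 (adjusted p = 0.0218 and 0.0203). Stx12, an endosomal syntaxin, rose by 0.66 and 0.72 (adjusted p = 0.00812 and 0.00437). Stx5a and Stx18, which serve transport between endoplasmic reticulum and Golgi, rose in transgenic mice by 0.71 and 0.48 (adjusted p = 0.00491 and 0.04) and gave 0.24 and 0.01 in wild type, without a call. Without the slide term none of these 4 was called, with values from -0.43 to 0.44. Stx6, of the trans-Golgi network, was called in neither fit (-0.53 and -0.19 without slide).

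Stx17, the autophagosomal syntaxin that also sits at the endoplasmic reticulum, gave different answers by probe. Its brightest probe, which stands for the gene here, gave 0.92 ± 0.63 and -0.07 ± 0.68, neither called. The other 2 probes gave -0.99 ± 0.26 and -2.28 ± 0.34 in wild type (adjusted p over all probes 0.0284 and 0.000874). In transgenic mice they gave -1.39 ± 0.28 and -2.12 ± 0.37 (adjusted p 0.00902 and 0.0036). On the dimmest probe wild-type saline arrays read -1.52, -0.84, -1.08 and -1.06 and cerulein arrays -3.16, -3.42, -2.81 and -4.22. Its transgenic arrays read -0.80, -0.61 and -0.60, then -2.02, -3.42, -2.38 and -3.33, so that the groups did not overlap. The brightest probe read 1.52 to 2.12 on 5 arrays of slides 1 and 2 and between -0.86 and 0.19 on the remaining 10, and which probe tracks which transcript was not tested.

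**Figure D3:**
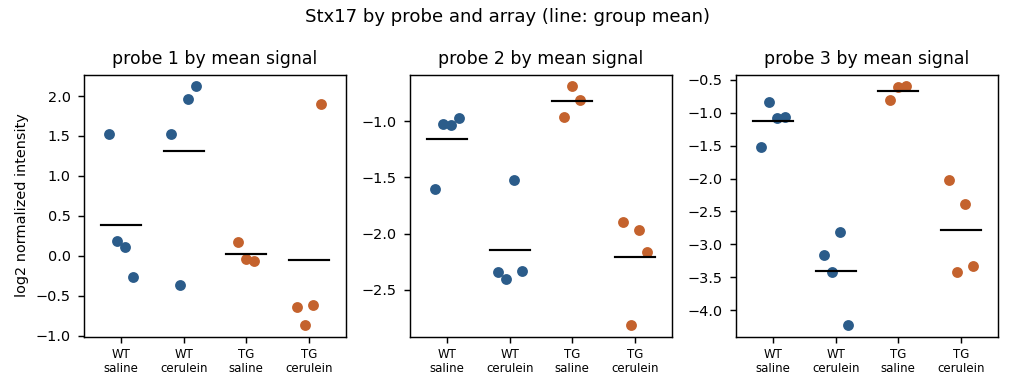
Log2 normalized intensity (y axis) of the 3 Stx17 probes on every array in the 4 groups, ordered by mean signal, with a line at each group mean. The brightest probe splits within groups, while the other 2 read lower on every cerulein array than on the saline arrays of the same genotype, apart from wild type on the middle probe, where the highest cerulein array (-1.52) lies just above the lowest saline array (-1.60).

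Of 7 VAMPs, 1 was called without slide in the fit. Vamp2, the granule SNARE of acinar, islet and nerve cells, fell in both genotypes. It read 1.09, 1.41, 1.21 and 0.99 in wild type after saline and -0.43, 0.00, 0.08 and -1.16 after cerulein. Transgenic mice read 1.32, 1.44 and 1.42, then 0.49, 0.10, 0.66 and -0.70. The saline arrays lay close together, the cerulein arrays spread over more than 1 unit, and the groups did not overlap. The fall was -1.55 ± 0.31 (2.93-fold, adjusted p = 0.00401) and -1.26 ± 0.33 (2.39-fold, adjusted p = 0.0297), and -1.16 and -1.03 with slide in the fit. The transgenic call was lost without cerulein replicate 14 (-1.25) or 16 (-0.98), or without saline replicate 2 (-1.30), 3 (-1.24) or 4 (-1.25).

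Vamp8, the other VAMP of zymogen granules, was not called. It read 3.95, 4.36, 4.25 and 4.15 in wild type after saline and 3.77, 4.69, 4.13 and 3.45 after cerulein. In transgenic mice it read 4.12, 4.30 and 4.20, then 4.27, 3.99, 4.59 and 3.11. Its lowest arrays were on slide 2 and its highest on slide 3, and the groups overlapped. The difference was -0.17 (95% interval -0.82 to 0.49) and -0.22 (-0.93 to 0.49). Vamp3, of recycling endosomes, gave 0.07 and 0.35, and with slide in the fit it was called as raised in transgenic mice (0.69, adjusted p = 0.0219). Vamp1, a relative of Vamp2, was called as lowered under that fit alone (-0.68 and -0.46, adjusted p = 0.00687 and 0.0409). Vamp4, of the trans-Golgi network, gave -0.52 ± 0.28 on its brightest probe, not called, and -1.14 ± 0.25 on its second (adjusted p over all probes 0.0105) in wild type. Vamp5 and Vamp7 were not called, at -0.46 and -0.69 in wild type and -0.39 and -0.36 in transgenic mice.

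None of the 4 SNAP-25 relatives was called in either response, and all 4 differences were below 0 in each. Snap23, the ubiquitous form used by acinar cells, gave -0.56 (95% interval -1.28 to 0.16) and -0.67 (-1.45 to 0.11). Snap25, the form of neurons and endocrine cells, gave -0.61 (-1.40 to 0.18) and -0.56 (-1.41 to 0.29). Snap29 and Snap47, found on many internal membranes, gave -0.58 and -0.45 in wild type and -0.30 and -0.39 in transgenic mice. With slide in the fit the group's median moved from -0.57 to 0.02 in wild type and from -0.47 to -0.09 in transgenic mice. Snap23 read 4.17 and 4.16 on the wild-type cerulein arrays of slide 2 and 5.33 on that of slide 3, beside 5.29 to 5.53 on the 3 saline arrays of slide 3. A second Snap23 probe and a second Snap29 probe had the opposite sign in both responses, none of them called.

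**Figure D4:**
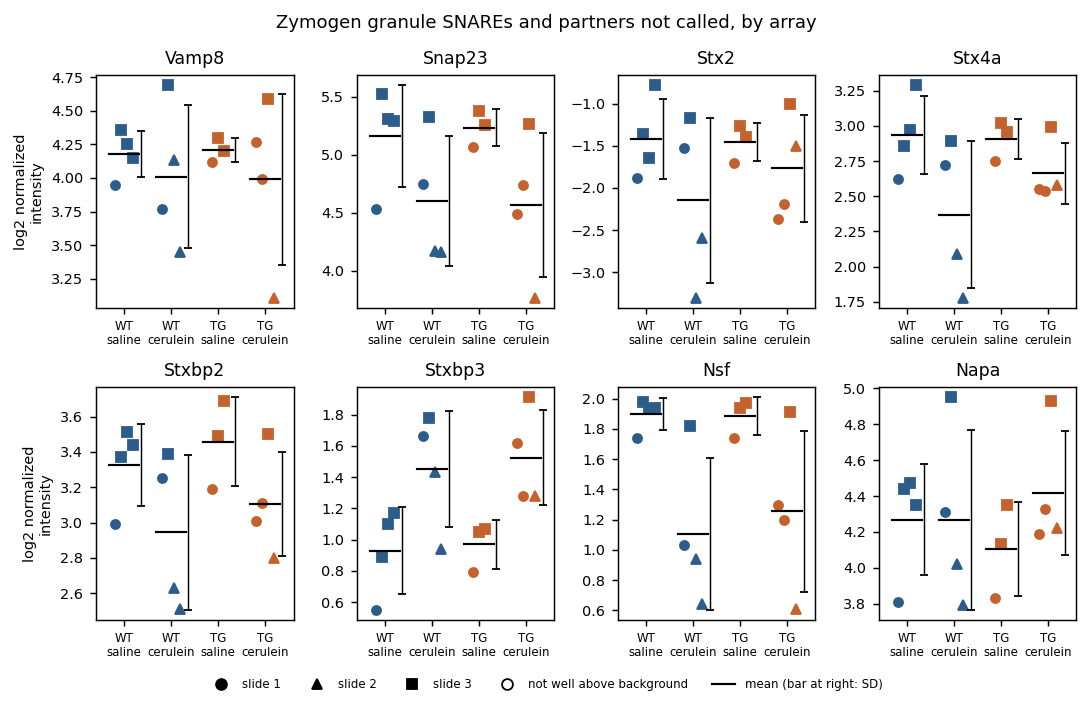
Log2 normalized intensity (y axis) on every array for 8 SNAREs and partners of granule release that were not called, in the 4 groups. Symbols give the slide, the line is the group mean and the bar at its right the SD. Saline and cerulein arrays overlap for Vamp8 and Snap23 in both genotypes, and the cerulein arrays of slide 2 (triangles) are the lowest of their genotype for Snap23 and Nsf.

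The syntaxin-binding proteins included Stxbp5, whose cerulein signals were mostly at background. Of 6 tested, 3 fell in wild type and 2 in transgenic mice, against 8.35% and 3.41% of all genes, and none rose. With slide in the fit, 2 fell and 1 rose in each genotype. Under that fit 7.79% of all genes fell and 13.8% rose in wild type, and 8.35% and 15.2% in transgenic mice. Stxbp5, known as tomosyn, carries a SNARE-like motif and occupies syntaxins in place of a VAMP, which limits fusion. Its promoter (chr10:9901041-9901290, minus strand, same table and build) is shown as that of the member whose signal sank to background in wild type. Capitals mark adjoining GGGCGG matches.
Stxbp5 promoter: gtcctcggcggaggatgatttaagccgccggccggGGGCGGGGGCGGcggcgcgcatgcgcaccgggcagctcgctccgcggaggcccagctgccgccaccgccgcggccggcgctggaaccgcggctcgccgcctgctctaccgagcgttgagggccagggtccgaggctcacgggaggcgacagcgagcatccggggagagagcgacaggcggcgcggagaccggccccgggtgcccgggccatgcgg
This stretch was 78.4% GC and held no TATAAA. It held no TGACG either. The remaining 4 motifs searched, on both strands, were absent from the shown bases of Stx3, Stx1a and Stxbp5. One was the full cyclic AMP response element TGACGTCA, held by 1.55% of all promoters. Another was the AP-1 site, spelled TGANTCA and held by 6.75%. The E-box was spelled CACGTG and held by 6.02%, and the CCAAT box was held by 33.8%. A match or its absence describes these letters alone.

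Stxbp5 read -4.17, -2.84, -3.03 and -3.13 in wild type after saline, above background on 3 of the 4 arrays. After cerulein it read -6.73, -6.60, -6.82 and -7.10 and was not well above background on any array. Its wild-type difference is therefore only given as a bound on processed intensities, 2.59-fold lower or more (adjusted p = 0.000354 for the fitted difference). The bound sets the saline mean against, on each cerulein array, the higher of the lowest above-background signal of any probe and its own signal. That floor is not a detection limit of the Stxbp5 probe, and the saline mean includes the array not above background. The bound is thus approximate. The measured means were -3.29 ± 0.60 and -6.81 ± 0.21 (SD, n = 4 each). Transgenic mice read -3.78, -2.84 and -3.09 after saline and -6.27, -6.69, -6.17 and -3.84 after cerulein. Replicate 16 was the only transgenic cerulein array above background, and it stood well above the other 3. The fitted transgenic difference was -2.51 ± 0.54 (adjusted p = 0.00916), but with 3 of 4 cerulein arrays not above background its size is not settled. Both calls held with slide in the fit (adjusted p = 0.000215 and 0.00287). With normexp background correction the values were -1.0 and -0.88, and in the submitters' value table -1.84 and -1.18, all called. The transgenic call was lost without saline replicate 3 (-2.31).

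Stxbp6, known as amisyn, also carries a VAMP-like motif and binds syntaxins and SNAP-25. It read 0.24, 1.42, 1.37 and 1.10 in wild type after saline and -0.49, -0.80, -1.66 and -0.46 after cerulein. Transgenic mice read 0.80, 1.51 and 1.37, then -0.74, -0.30, 0.01 and -0.65. Both responses separated the arrays fully, with wild-type saline replicate 5 lowest among the saline arrays. The fall was -1.88 ± 0.32 (3.69-fold, adjusted p = 0.00152) and -1.64 ± 0.35 (3.13-fold, adjusted p = 0.0088). The slide term left -1.54 and -1.38, both called. Within slides 1 and 3 it was -0.73 and -2.10 in wild type and -1.32 and -1.43 in transgenic mice. The transgenic call was lost without saline replicate 3 (-1.50).

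Among the Munc18 proteins that pair with epithelial syntaxins, none was called without slide in the fit. Stxbp2 (Munc18-2), the epithelial partner of Stx3, was not called (-0.38 ± 0.24 and -0.35 ± 0.26). Stxbp3 (Munc18c), a partner of Stx4, gave 0.52 ± 0.23 and 0.55 ± 0.25, not called. With slide in the fit Stxbp3 was called as raised, at 0.85 and 0.78 (adjusted p = 0.00235 and 0.00364). Stxbp4, another Stx4 partner, was not called (-0.49 and -0.50).

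Of 11 synaptotagmins tested, 1 fell in wild type (9.09%, near the 8.35% of all genes). In transgenic mice 2 fell (18.2%, beside 3.41% of all genes), and none was called as raised in either genotype. Syt15, whose C2 domains do not bind calcium, fell in both. It read -0.67, -0.28, -0.18 and -0.37 in wild type after saline and -1.15, -1.45, -2.31 and -1.48 after cerulein. Transgenic mice read -0.44, -0.20 and -0.20, then -2.07, -1.11, -0.94 and -1.63. The groups did not overlap in either genotype. The fall was -1.22 ± 0.28 (2.33-fold, adjusted p = 0.0101) and -1.16 ± 0.30 (2.23-fold, adjusted p = 0.0289). Under the slide term it was -0.92 and -0.95, both called. A second, dimmer Syt15 probe gave -0.39 ± 0.29 and -0.60 ± 0.31 and was not called. The wild-type call was lost without slide 2 (-0.93), and the transgenic call without cerulein replicate 13 (-0.94) or 16 (-1.09) or saline replicate 2 (-1.23), 3 (-1.12) or 4 (-1.12).

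Syt6, known from the sperm acrosome reaction, read 2.70, 3.06 and 3.12 in transgenic mice after saline and 2.05, 1.85, 2.45 and 2.36 after cerulein. All cerulein arrays were lower. The difference was -0.79 ± 0.21 (1.72-fold, adjusted p = 0.0319) and -0.76 with slide in the fit (adjusted p = 0.00925), and the call was lost with normexp correction (-0.50), with quantile normalization (-0.72) and without cerulein replicate 13 (-0.75) or 14 (-0.68) or saline replicate 3 (-0.74) or 4 (-0.71). In wild type it was -0.49 ± 0.19 (adjusted p = 0.106), also without overlap between the groups. The calcium sensors Syt1, Syt3 and Syt7 were not called, at -0.13, -0.55 and 0.55 in wild type and -0.33, -0.24 and 0.29 in transgenic mice. Syt13, a calcium-independent form, gave -1.09 ± 0.37 in wild type (adjusted p = 0.0659) and -0.65 ± 0.40. Syt10 had a wide interval (-3.49 to 1.39 in transgenic mice): it read 2.86 on transgenic saline replicate 2 and 2.32 on wild-type cerulein replicate 11, and between -2.49 and 0.26 elsewhere.

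The 5 synaptotagmin-like proteins, which tether granules through Rab27, were not called in either response. Sytl1, present in acinar cells, gave -0.46 ± 0.29 and -0.38 ± 0.31. Sytl4, known as granuphilin and found on insulin granules, gave -0.61 ± 0.26 (adjusted p = 0.127) and -0.44 ± 0.28. Sytl2 gave -0.29 ± 0.74 and 0.42 ± 0.80. Sytl5 was above background on 3 wild-type cerulein arrays and on no other array. It entered the test through that group, and its difference was 0.12 ± 0.64. Nsf gave -0.79 ± 0.28 (adjusted p = 0.0722) and -0.63 ± 0.30 (adjusted p = 0.241), and -0.30 and -0.31 with slide in the fit. Napa, alpha-SNAP, gave 0.00 ± 0.27 and 0.32 ± 0.29 on its brightest probe. With slide in the fit it was called as raised by 0.43 and 0.63 (adjusted p = 0.0316 and 0.00377), and its second probe gave 0.94 ± 0.27 and 1.16 ± 0.29 without slide (adjusted p over all probes 0.0431 and 0.0311).

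Slide in the fit changed the balance of calls among the members, as it did over all genes. Under it 6 rose and 7 fell in wild type, against 13.8% and 7.79% of all genes, and 9 rose and 7 fell in transgenic mice, against 15.2% and 8.35%. All 8 members called in transgenic mice without slide were called with it. In wild type 8 of 10 were. The members gained in both genotypes were Napa, Stx7, Stx12 and Stxbp3 among those that rose and Vamp1 among those that fell. Stx5a, Stx18 and Vamp3 were gained as raised in transgenic mice. Slide 2 held no saline array, so on it treatment and slide cannot be told apart, and the slide term draws the contrast from slides 1 and 3. Each of these 2 slides held 1 wild-type cerulein array.

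**Figure D5:**
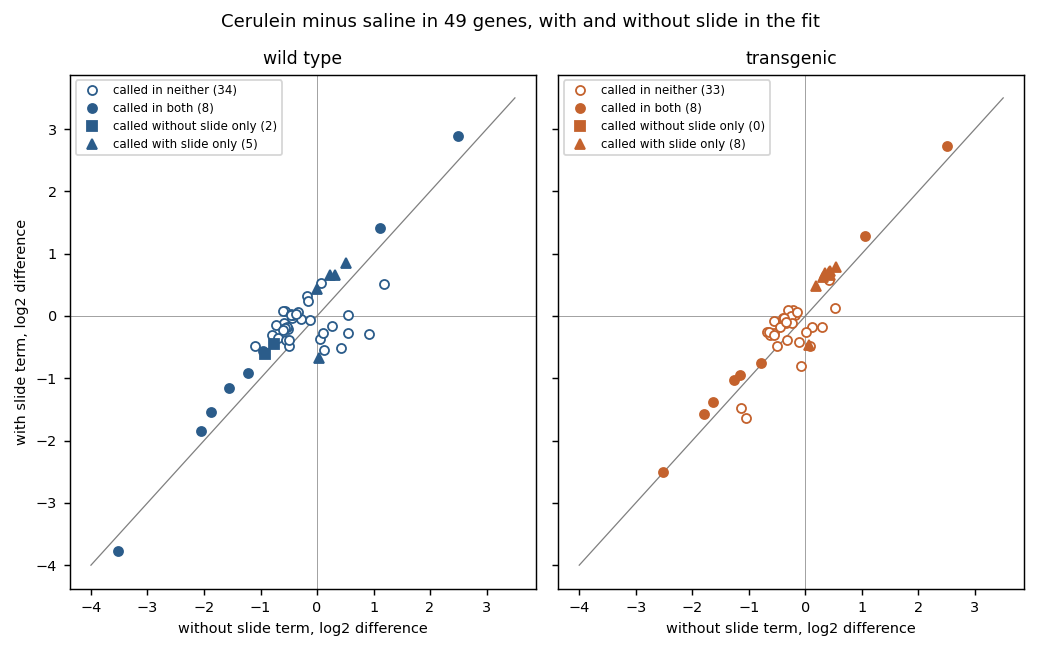
Log2 difference between cerulein and saline in the 49 tested members without (x axis) and with (y axis) slide as a term, in wild type (left) and transgenic mice (right). The grey diagonal marks equal values and the symbols show under which fit a member was called, with counts in the legend. Stx3 is at the upper right of both panels, and 8 members were called under both fits in each genotype.

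The transgenic and wild-type mice were compared directly at each treatment. No member was called after saline, where 0.075% of all genes were higher and 0% lower in transgenic mice. None was called after cerulein, where 0.138% were higher and 0.00577% lower. For the difference between the genotypes in the response, 0% of all genes were called in either direction. At an unadjusted p below 0.05 the limma fit held 1, 4 and 0 members in these 3 comparisons. Over all 17337 genes tested it held 557, 1222 and 134 at that threshold. The 4 members after cerulein are therefore not shown to exceed the background. The 4 after cerulein were Syt13 (1.01 ± 0.37, adjusted p = 0.541), Syt6 (-0.44 ± 0.19), Stx17 (-1.36 ± 0.63) and Stxbp5 (1.07 ± 0.50). For Stxbp5 both cerulein groups lay mostly below background. The Stx17 value is that of its brightest probe alone, which split within groups.

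For the members called in both responses, the interval of the genotype difference in response shows what size could have been seen. For Stx3 it was 0.00 (95% interval -0.79 to 0.80), for Stx16 -0.05 (-0.85 to 0.75), and for Syt15 0.07 (-0.82 to 0.95). For Vamp2 it was 0.29 (-0.68 to 1.26), for Stx1a 0.26 (-0.91 to 1.43), and for Stxbp6 0.24 (-0.78 to 1.26). For Stxbp5 the fitted value was 1.01 (-0.56 to 2.58), from cerulein signals mostly not above background. These intervals include 0 and also sizeable differences, so the genotypes are not shown to respond alike.

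Other genes of the fusion machinery were taken from lists outside the naming rule. Their counts stand against 8.35% of all genes lowered and 5.63% raised in wild type, and 3.41% and 4.78% in transgenic mice. With slide in the fit these shares were 7.79% and 13.8% in wild type, and 8.35% and 15.2% in transgenic mice. Of 14 other SNAREs and SNAP adaptors, 13 were tested, 4 fell in wild type and 2 in transgenic mice. The list's medians were -0.71 and -0.59, and -0.26 and -0.28 with slide in the fit. Ykt6, a SNARE of Golgi and autophagosome fusion, gave -1.30 and -1.33 (adjusted p = 0.00261 and 0.00538), and -1.08 and -1.13 with slide. Vti1a, the partner of Stx16 and Stx6 at the trans-Golgi network, gave -0.93 and -0.65 (adjusted p = 0.00228 and 0.0394), and -0.78 and -0.58 with slide. Gosr1, a Golgi SNARE, and Napg, gamma-SNAP, were called in wild type alone, and Napg lost its call with slide (adjusted p = 0.065). With slide, 4 of the list were called as lowered in wild type, and 2 as lowered and 1 as raised in transgenic mice.

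A list of 17 genes held Rab3 and Rab27 GTPases and effectors, and also Rab8a and Rab11a. Of these, Rab3a, Rab27a and Rab3il1 fell in wild type, and Rab3il1 lost its call with slide (adjusted p = 0.114). In transgenic mice Rab3a fell and Rab3gap2, a subunit of the Rab3 GTPase-activating complex, rose by 0.94 ± 0.22, or 1.11 with slide. With slide, 2 of the list rose and 3 fell in each genotype. Rab11a was called as raised under that fit alone (0.49 and 0.5, adjusted p = 0.0438 and 0.0361). Rab3gap2 was then also called as raised in wild type (0.84, adjusted p = 0.000708). Rab27a was also called as lowered in transgenic mice (-0.55, adjusted p = 0.0451). Rab3a, a granule GTPase of neurons and endocrine cells, gave -3.80 ± 0.30 and -3.04 ± 0.33 (adjusted p = 2.33e-06 and 5.91e-05), and -3.27 and -2.70 with slide. Among 12 tested priming and clamping factors, Doc2b rose (1.31 ± 0.40) and Doc2g fell (-1.28 ± 0.29) in wild type, and none was called in transgenic mice. Doc2b lost its call with slide (adjusted p = 0.129). With slide, 1 of these factors rose and 2 fell in wild type, and 1 rose in transgenic mice. Of 10 exocyst subunits, which tether vesicles to the plasma membrane, Exoc3 was called as lowered in wild type (-0.88 ± 0.26) but not with slide (adjusted p = 0.101). Without slide none was called in transgenic mice. With slide, 1 subunit was called as raised in each genotype. The 11 tested granule membrane and scaffold genes had no call in either response without slide, and 1 was called as lowered in transgenic mice with it. Their medians were -0.49 and -0.40, or -0.03 and -0.12 with slide.

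The acinar markers checked the tissue label, with all 9 above background on every array, and their median difference was -0.83 in wild type and -0.71 in transgenic mice (-0.26 and -0.36 with slide). Calls among them went both ways: Ptf1a rose (1.17 and 1.68), Rbpjl fell (-1.81 and -1.73), and Bhlha15 fell in wild type (-1.24) but not with slide (adjusted p = 0.154). Their summed level on the log2 scale ran from 13.39 to 14.17 in wild type after saline, 12.64 to 13.83 after cerulein, and in transgenic mice from 13.24 to 13.86 and 12.34 to 13.36. Islet cells also use Stx1a, Vamp2, Snap25 and Rab3a. None of 12 islet markers was called, their medians were -0.63 and -0.46 (-0.10 and -0.08 with slide), and their summed level ran from 9.31 to 10.24 and 8.77 to 9.85 in wild type and from 10.21 to 10.49 and 8.88 to 10.42 in transgenic mice. Of 13 neuron and glia markers 9 were tested, and Nefl, Nefm and Snap91 were among those not above background on any array. The median was -0.16 and -0.11, and -0.44 and -0.43 with slide. Of these 9, 1 was called as lowered in each genotype, and 2 in each with slide. The summed level ran from 2.12 to 2.65 and 2.15 to 2.49 in wild type. In transgenic mice it ran from 2.16 to 2.39 and 2.01 to 2.30. The part of a change in islet or nerve content in the falls of Stx1a and Vamp2 was not tested. Neutrophil markers rose for 3 of 8 in wild type and 1 of 8 in transgenic mice, against 5.63% and 4.78% of all genes. With slide, 3 rose in wild type, and 1 rose and 1 fell in transgenic mice. Their summed level ran from 6.78 to 7.62 after saline and 6.39 to 7.61 after cerulein in wild type. In transgenic mice it ran from 7.25 to 7.7 and 6.53 to 7.61. Of 6 duct markers, Sox9 fell in both (-1.68 and -1.27) and Muc1 in wild type (-0.98). With slide, 1 duct marker rose and 1 fell in each genotype, and Muc1 lost its call (adjusted p = 0.0964).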

How the data were processed

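Processed intensities of 1-colour (Cy3) Agilent arrays were deposited by the authors, which the file headers and the submitters' processing notes credit to Agilent's software Feature Extraction 10.7.3.1; background was subtracted and spatial trends removed within each array, per the file headers. A deposited table of log2 values, normalized by the authors (how is not given in the sources used here), matched 42379 of its 42482 probes to the scanner files and correlated with them at 0.987 to 0.998; its column medians were 6.56 to 6.93, and it served as an alternative. Outlier spots, marked by flags in the deposited files (105 to 188 of 59305 spots an array), were left out, and no spot was saturated.

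From these, spots of a probe were averaged, and log2 intensities minus each array's 75th percentile were fitted with limma 3.58.1 (R 4.3.3, lmFit and eBayes, 11 residual degrees of freedom) over 4 group means of 15 arrays. Benjamini-Hochberg adjustment ran over all 17337 genes of a comparison, tests were two-sided, and calls needed an adjusted p below 0.05. Probes were named through RefSeq accessions (27235 of 55681 probes had a symbol) and kept if well above background on at least 3 arrays, and the brightest kept probe stood for a gene. Replicates were separate animals per the series' design text, and their number limits the precision. Named genes were every called member plus a list of SNAREs and partners of granule release; members and lists were chosen with earlier results of these data known. Alternatives were normexp (offset 50, on median signals, as the files held no mean signal column), quantile normalization, other filters, the mean of probes, the deposited table, slide as a block, single slides and each array left out; the fits without slide 2 and over every kept probe were chosen after seeing the data. The fit was tested on simulated data. Promoters came from a RefSeq table of build GRCm38.p6, whereas the array's header names mm9; 6 of the 7 members called in both responses had an entry there. The values of 2 tested members, and of some markers, enter the counts and medians but are not reported here. Figures were drawn with matplotlib 3.10.9.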

Additional observations from a re-analysis of the deposited data

Results flagged for a closer look

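Among 34 named members in the 3 groups of 4 animals, 4 of 102 sets of values had an array far from the other 3, by a gap test that chance alone passes in about 1 in 20 sets. The brightest Stx17 probe read 1.90 on transgenic cerulein replicate 16 and -0.86 to -0.61 on the other 3 arrays of that group. Stx4a read 2.99 on transgenic cerulein replicate 15, against 2.54 to 2.58. Vamp3 read -0.47 on the same replicate 15, against -1.85 to -1.65. In wild type after saline, Vamp3 read -2.19 on replicate 5, against -1.59 to -1.47. The Vamp3 and Stx4a differences were not called without slide in the fit.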

How the results depend on the processing

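With slide as a block, 6 members (12.2%) rose in wild type and 9 (18.4%) in transgenic mice, against 2 and 2 without it. The share of all genes that rose also grew, from 5.63% to 13.8% in wild type and from 4.78% to 15.2% in transgenic mice. Lowered members in wild type numbered 4 without slide 2 and 5 to 14 when 1 array was left out. In transgenic mice, leaving out 1 array gave 1 to 2 raised and 0 to 6 lowered members. These counts with arrays left out are not set beside the share of all genes called under the same fits. Under normexp, quantile normalization, other filters, the mean of probes and the submitters' table, the counts of raised and lowered members stayed within 1.5 times the main ones. No member was called between genotypes under any of these. Over the alternatives of each called member, 375 values kept their direction and, where a fit gave a test, their call. Another 57 kept direction and lost the call, 14 within-slide values moved by more than 1 SD, and none reversed. Within-slide values are plain differences of means without a test, so they hold no call. The cause of the changes was not tested. Stx1a and Stxbp5 gave no value when a probe had to be above background on all 15 arrays. Dim probes near background, as for Stxbp5, set bounds rather than folds. No paired analysis was possible because the groups share no replicate number.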
